A study of Rattus norvegicus with 10 samples.

Results

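Among the rows that the deposited gene table names only by a placeholder beginning with AABR07, a handful held very many reads. A name of this kind is built from the identifier of a contig in the rat genome assembly and is used where no gene symbol has been assigned. Of the 22081 rows of the table, 1183 carried such a name, and 0 of these 1183 had a database object name in the deposited annotation. The 5 rows described here, AABR07000398.1, AABR07015055.1, AABR07015066.1, AABR07015078.1 and AABR07015080.2, were chosen by their high total gene reads over the 10 samples, so that their level is a description and not a result. RefSeq's rat gene table (assembly GRCr8) matched 0 of the 5. No function is therefore given to any of them, and their sequences were not analysed here.

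The study compared rupture-prone intracranial aneurysms, which arise at the anterior or posterior communicating artery, with the remaining circle of Willis of the rats that bore them. The samples are aneurysm 4 to 8 and control 4 to 8, that is, 5 in each group, and the label gives the genotype of all of them as WT. The animals were female Sprague-Dawley rats, 10 weeks old when operated on, and the tissue was taken on day 63 after surgery. To raise blood pressure, the left renal artery had been tied off and the food held 8% sodium chloride. Flow to the head had been altered by closing 3 vessels (the right pterygopalatine, the right external carotid and the left carotid artery), both ovaries had been removed, and 0.12% 3-aminopropionitrile, which inhibits lysyl oxidase, had been added to the food. The controls thus carried the same operations and diet and are not untreated arteries. That every number stands for its own animal is not stated in the labels, and the p-values below therefore cover the spread between these samples, which may be technical.

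Poly(A)-selected RNA sequencing, the assay used here, is meant to sample mature messenger RNA. Reads on exons can come from mature or from precursor RNA. Reads on introns can come, among other sources, from RNA that was not spliced or from molecules that the annotation does not describe. Where several places in a genome have the same sequence, a read from any of them maps equally well to all, and a counter marks it as not unique. The table gives, for each row and sample, total gene reads (exon plus intron reads), the unique reads among them, and reads that cross an exon junction.

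The aneurysm libraries held 4513515 to 7352626 gene reads, and the control libraries held 3017269 to 5692715. Aneurysm 8 stood apart, with 743 genes at 10 or more exon reads against 2664 to 7590 in the other samples, and with a TMM scaling factor of 0.282 against 0.759 to 1.57. It also had the lowest summed level of smooth muscle markers (108 RPM, that is, reads scaled to 1000000 gene reads in each library, against 371 to 1375 in the controls) and of endothelial markers (2.22, against 74.9 to 105). All 5 smooth muscle markers and the 4 endothelial markers with a row in the table were detected, that is, had 10 or more reads in some sample, which need not be aneurysm 8. Neuronal markers summed to 2.38 to 87.1 RPM in the aneurysms and 125 to 576 in the controls, and astrocyte markers to 1.11 to 218 and 423 to 1036. In bulk samples, fewer cells of a type and less RNA per cell cannot be told apart. Nor can either be told apart from the part of a library that a few rows take up. In aneurysm 8, AABR07000398.1 and the rows of the mitochondrial genome together held 87.8% of the gene reads, which lowers the RPM of every other row. Other markers reached a higher maximum in the aneurysms, with fibroblast markers at 112 to 29459 RPM against 40.8 to 386 in the controls, macrophage markers at 15.7 to 903 against 1.23 to 105 and oligodendrocyte markers at 45.4 to 588 against 27.2 to 163, all 3 with overlapping ranges. The highest value of all 3 was that of aneurysm 5. Their lowest value among the aneurysms was that of aneurysm 8, as it was for the astrocyte markers. The part of the cell makeup in the values below was not tested, and the means and differences that turn on aneurysm 8 are also given without it.

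AABR07000398.1 (ENSRNOG00000047746) was the most abundant row of the whole table. It lies on chr1:11963836-11968939 (Rnor6) and spans 5104 bases, with 5 annotated exons that together measure 1140 bases, 3964 bases of intron and 1 transcript. No other row of the table overlaps it. The nearest rows are AABR07000385.1, 90369 bases before it, and Mcc_1, 37720 bases after it. Over the 10 samples it took 21.6% of all gene reads on average, and the next row, Mt-atp6, a mitochondrial gene for a subunit of ATP synthase, took 7.98%. Of all reads on AABR07 rows, 97.97% were on this row. Per kilobase of the annotated span it ranked seventh, with 42328 RPM per kilobase, and the 6 rows above it were all of the mitochondrial genome.

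AABR07000398.1 had 1470846, 1360821, 969808, 1354132 and 1690964 reads in aneurysm 4 to 8. It had 854139, 750209, 563604, 972742 and 536943 reads in control 4 to 8. As a share of the gene reads of each library this was 20.8%, 18.5%, 21.0%, 28.6% and 37.5% in the aneurysms and 20.1%, 17.7%, 17.1%, 17.1% and 17.8% in the controls. The controls lay close together, aneurysm 7 and aneurysm 8 lay highest, and all aneurysms except aneurysm 5 were above every control. A stricter pattern, every aneurysm above every control in share, was held by 16 of 7615 tested genes (0.21%). AABR07000398.1 was not among them. Genes with all but 1 aneurysm above every control were not counted, so that how common the pattern of this row was is not known. The mean share was 25.3% ± 7.81 (SD, n = 5) in the aneurysms and 17.9% ± 1.24 (SD, n = 5) in the controls. The difference of 7.34 percentage points had p = 0.0159 in a two-sided exact permutation test over all 252 splits of 5 and 5 samples, in which the smallest possible p is 0.00794. This was 1 of 15 exact tests on the 5 rows. The test treated the samples as unpaired, although the paper took an aneurysm and the remaining vessels from the same animal. With the sample number as a block, which the labels do not say marks the animal, the exact sign-flip p was 0.0625. That is the smallest p the sign-flip test can give. Without aneurysm 8 the mean of the aneurysms was 22.2% ± 4.40 (SD, n = 4) and the difference was 4.29 points (exact permutation p = 0.0238). Without any 1 of the controls the difference was 7.12 to 7.87 points, and the exact permutation p rose to 0.0556 without control 4, 0.0794 without control 5 or 8, and 0.0952 without control 6 or 7.

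**Figure D1:**
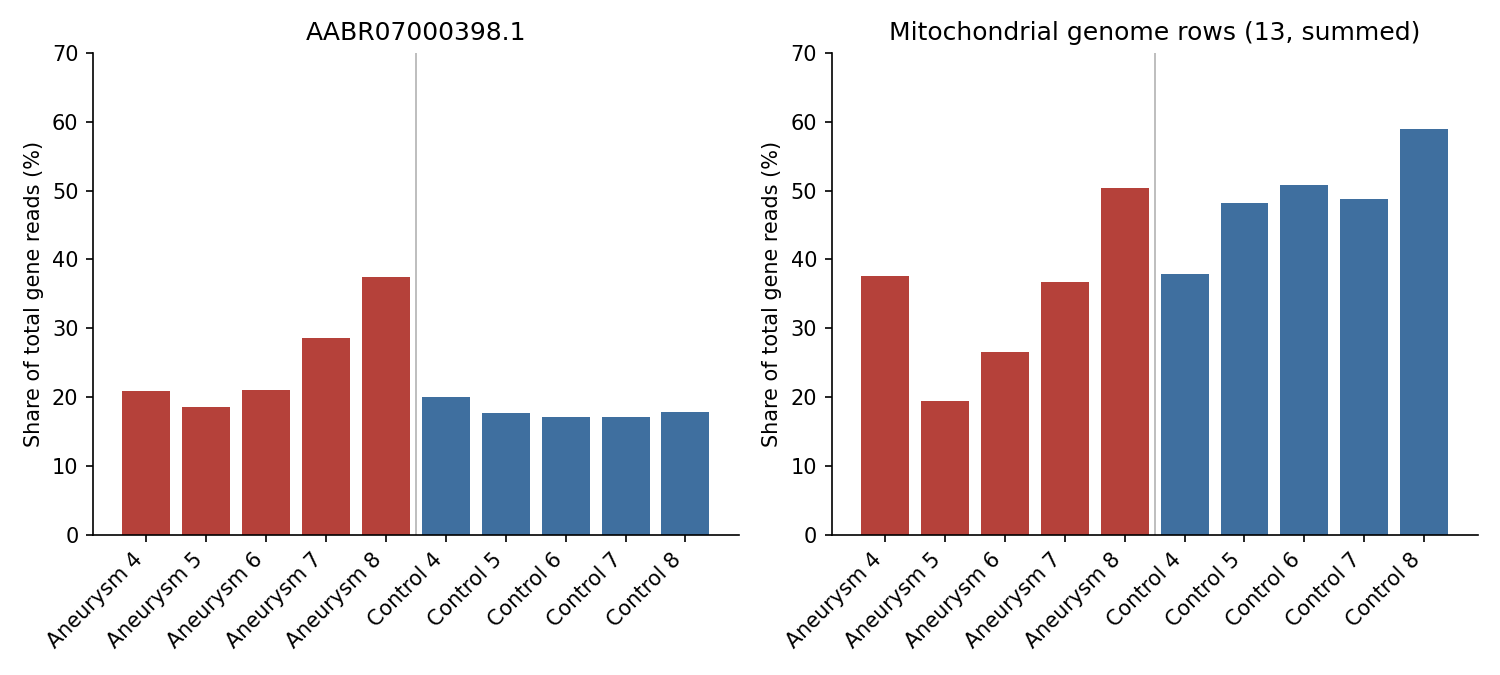
Share of the gene reads of each library taken by AABR07000398.1 and by the 13 rows of the mitochondrial genome, in percent, in aneurysm 4 to 8 and control 4 to 8. The share of AABR07000398.1 was 17.1% to 20.1% in the controls and 18.5% to 37.5% in the aneurysms, and the mitochondrial share was lowest in aneurysm 5 (19.4%).

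The difference in share depended on what the reads were divided by. The 13 mitochondrial rows, which encode subunits of the respiratory chain and of ATP synthase, held 37.5%, 19.4%, 26.5%, 36.7% and 50.3% of gene reads in aneurysm 4 to 8 and 37.9%, 48.3%, 50.8%, 48.8% and 59.0% in control 4 to 8. With the mitochondrial rows left out of the denominator, AABR07000398.1 took 33.3%, 23.0%, 28.6%, 45.2% and 75.4% of the remaining reads in the aneurysms and 32.3%, 34.1%, 34.7%, 33.4% and 43.4% in the controls. On that scale 2 aneurysms lay below every control and only aneurysm 7 and aneurysm 8 lay above all of them. The mean was 41.1% ± 20.9 in the aneurysms and 35.6% ± 4.45 in the controls (SD, n = 5 each), a difference of 5.52 points with an exact permutation p of 0.730. Without aneurysm 8 the mean of the aneurysms was 32.5% ± 9.45 (SD, n = 4) and the difference turned to -3.07 points (exact permutation p = 0.571). AABR07000398.1 and the mitochondrial rows together held 87.8% of the gene reads of aneurysm 8, against 37.9% to 65.3% in the other aneurysms and 58.0% to 76.8% in the controls.

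Set against the mitochondrial reads directly, the groups did not overlap. AABR07000398.1 had 55.4, 95.4, 79.1, 78.0 and 74.4 reads per 100 mitochondrial reads in aneurysm 4 to 8. It had 53.0, 36.6, 33.6, 35.0 and 30.2 in control 4 to 8. Aneurysm 4 and control 4, the nearest values of the groups, differed little. This ratio was looked at after the values were seen and was not tested. Of the 7602 tested genes outside the mitochondrial genome, 24 (0.316%), AABR07000398.1 included, had every aneurysm above every control on this scale. Every aneurysm was below every control for 63 (0.829%).

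The reads of AABR07000398.1 were almost all unique. The unique share was 99.86%, 99.85%, 99.98%, 99.88% and 99.91% in aneurysm 4 to 8 and 99.89%, 99.88%, 99.99%, 99.91% and 99.94% in control 4 to 8. The means, 99.90% and 99.92%, differed by -0.024 points (exact permutation p = 0.437, samples unpaired). With the sample number as a block the exact sign-flip p was 0.0625, the smallest it can give. The reads that were not unique numbered 158 to 2116 in the aneurysms and 65 to 967 in the controls, and all of them were intron reads, since the exon reads were unique without exception. The median unique share was 99.5% over the 12036 rows with a mean of at least 10 reads, so that in uniqueness this row did not stand out.

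Most reads of AABR07000398.1 lay in its annotated introns. The exon share of its reads was 3.24%, 3.47%, 3.39%, 1.41% and 2.62% in aneurysm 4 to 8 and 2.52%, 3.24%, 2.32%, 2.84% and 2.76% in control 4 to 8. The exon share was lowest in aneurysm 7, and the groups overlapped. The means were 2.83% ± 0.86 and 2.73% ± 0.35 (SD, n = 5 each), a difference of 0.092 points (exact permutation p = 0.865). A low exon share by itself was not rare in this table: the median was 34.1% over the 11763 rows with several exons and a mean of at least 10 reads, and 2530 of them (21.5%) had a lower share than AABR07000398.1.

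Introns are usually much longer than exons, and per kilobase the row was uncommon. Intron reads of AABR07000398.1 reached 50783, 45072, 51134, 71148 and 92033 RPM per kilobase in aneurysm 4 to 8 and 49348, 43123, 42035, 41884 and 43654 in control 4 to 8. Its exon reads reached 5918, 5626, 6241, 3538 and 8620 in the aneurysms and 4429, 5021, 3473, 4252 and 4309 in the controls. Introns were the denser part in every sample. The ratio of intron to exon density was 8.01 to 20.1 in the aneurysms, where aneurysm 7 was the highest, and 8.59 to 12.1 in the controls. Over all samples together it was 10.06, whereas the median of 7693 comparable rows was 0.0621. Of these rows 196 had more reads per kilobase on introns than on exons, and 3 (0.0390%) had a higher ratio than AABR07000398.1.

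**Figure D2:**
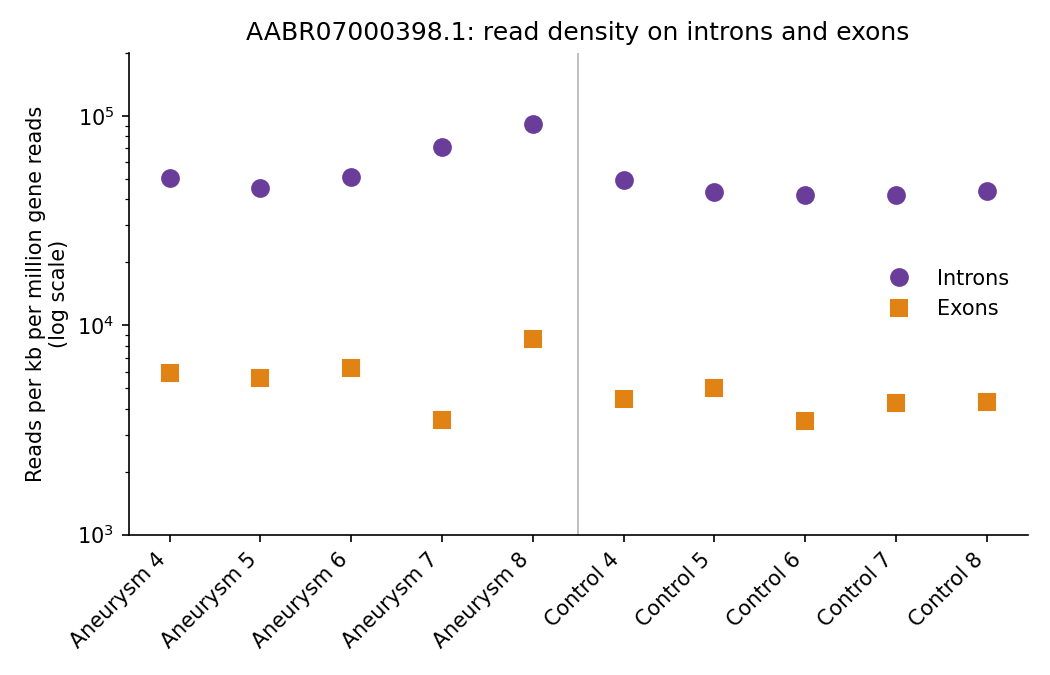
Read density of AABR07000398.1 in RPM per kilobase (log scale) on its 3964 bases of intron and on its 1140 bases of exon, in each sample. The intron density was above the exon density in all 10 samples, by 8.01 to 20.1 times.

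The row carried a large part of all intron reads of the libraries. It held 40.4%, 50.0%, 49.8%, 59.8% and 80.5% of the intron reads of aneurysm 4 to 8 and 41.6%, 42.4%, 47.9%, 42.1% and 52.8% of those of control 4 to 8. Of the exon reads it held 0.763% to 1.80% in the aneurysms and 0.607% to 0.958% in the controls. The share of intron reads in a library was 35.7% to 49.8% in the aneurysms and 32.8% to 47.1% in the controls with AABR07000398.1 counted. Without it, the share was 14.2% to 37.5% in the aneurysms and 18.8% to 34.4% in the controls. Counts restricted to exons thus leave nearly all reads of this row aside.

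Few exon reads of AABR07000398.1 crossed an exon junction. Junction reads numbered 227, 204, 5, 3 and 55 in aneurysm 4 to 8 and 81, 166, 189, 128 and 0 in control 4 to 8. Over all samples there were 3.62 junction reads per 1000 exon reads. The count bore no order with the groups, and aneurysm 6, aneurysm 7 and control 8 had almost none. Junction reads were scarce in the whole table, since the median of the 7693 comparable rows was 0 per 1000 exon reads and 55.3% of those rows had fewer than AABR07000398.1.

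The other 4 rows lie near each other on chromosome 14 and have the same length. AABR07015055.1 (ENSRNOG00000056747) lies on chr14:46523589-46523999 and AABR07015066.1 (ENSRNOG00000046600) on chr14:46588406-46588816. AABR07015078.1 (ENSRNOG00000055956) lies on chr14:46649971-46650381 and AABR07015080.2 (ENSRNOG00000059586) on chr14:46653035-46653445 (Rnor6). Each measures 411 bases, with 1 exon and no intron. Their starts are 64.8, 61.6 and 3.06 kb apart in that order. Of the 23 rows of the table with 1 exon of this length, 5 had a mean of at least 10 reads, namely these 4 and AABR07063424.1 on chromosome 6 (chr6:30638733-30639143).

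Each of the 4 rows overlaps another row of the annotation. AABR07015055.1, AABR07015066.1 and AABR07015080.2 each share 406 bases with a row named LOC257642 (_2, _3 and _4), and AABR07015078.1 holds all 384 bases of AABR07015078.2. How reads in shared bases were given to rows, and whether strand was used, is not given in the sources used here, so that the counts of each pair are uncertain.

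**Figure D3:**
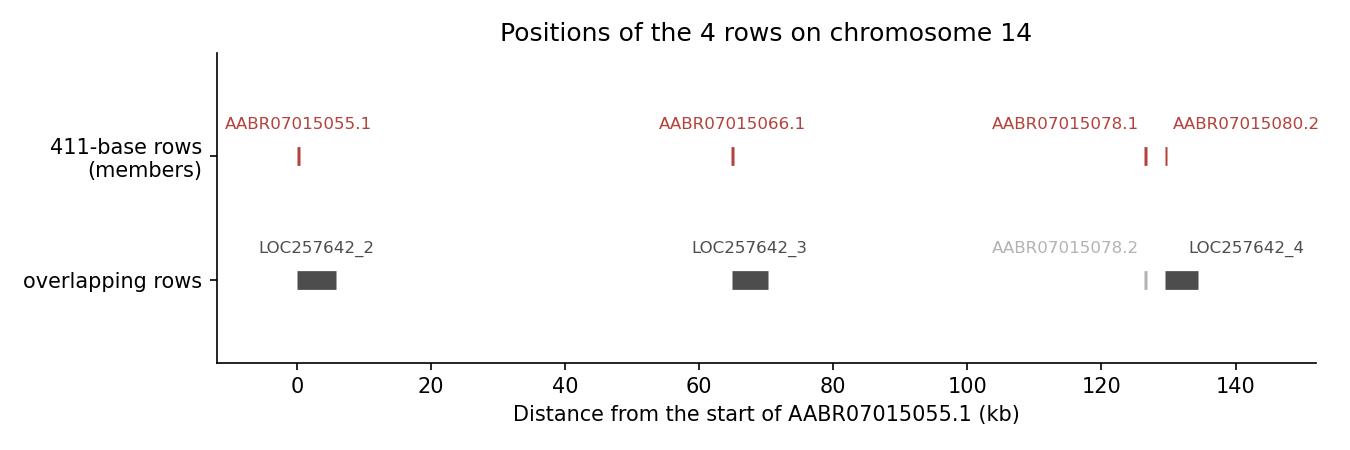
Positions of AABR07015055.1, AABR07015066.1, AABR07015078.1 and AABR07015080.2 (upper line) and of the rows that overlap them (lower line), as distance in kb from the start of AABR07015055.1. The first 3 rows are 64.8 and 61.6 kb apart, and the last 3.06 kb further on.

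No read of these 4 rows was unique. Their 62148 reads over the 10 samples included 0 unique reads in each of the 4 rows. Among the 12036 rows with a mean of at least 10 reads, 216 (1.79%) had 0 unique reads. The 4 rows were the opposite of AABR07000398.1 in the place of their reads as well, since all but 6 of the 62148 reads were exon reads. With no unique read, the level of any 1 of them cannot be told apart from that of the other places to which its reads map.

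The 4 rows had almost the same count in each library. AABR07015055.1 had 2029, 65, 2596, 572 and 6634 reads in aneurysm 4 to 8 and 728, 876, 703, 953 and 618 in control 4 to 8. AABR07015066.1 had 1914, 60, 2698, 536 and 6433 reads in the aneurysms and 683, 866, 717, 988 and 589 in the controls. The counts went up and down together from library to library. AABR07015078.1 had 1973, 68, 2582, 545 and 6319 reads in the aneurysms and 741, 909, 675, 988 and 629 in the controls. AABR07015080.2 had 1952, 73, 2610, 534 and 6446 reads in the aneurysms and 742, 905, 714, 920 and 565 in the controls. Within a library the counts of the 4 rows differed with a CV of 1.99% to 8.19%, and the chi-square per degree of freedom against equal counts had a median of 1.05 (0.446 to 2.64, the highest in aneurysm 8). The spread between the 4 rows was thus near that of counting error in most libraries. None of these reads was unique, and equal counts may come from how such reads were divided between places, which was not tested.

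The row on chromosome 6 moved with them. AABR07063424.1 had 1953, 75, 2678, 559 and 6381 reads in aneurysm 4 to 8 and 710, 954, 667, 1016 and 597 in control 4 to 8. Over the 10 samples the lowest Pearson correlation between any pair of the 5 rows, on log2 TMM-scaled CPM, was 0.9994. This is a description over 10 libraries, and the 5 rows have in common that none of their reads was unique.

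The level of the 4 rows was even in the controls and very uneven in the aneurysms. Their sum was 1113, 36.2, 2269, 462 and 5723 RPM in aneurysm 4 to 8. It was 680, 837, 850, 676 and 796 in control 4 to 8. Aneurysm 4, 6 and 8 lay above every control, and aneurysm 5 and 7 lay below every control. For AABR07015055.1 the mean was 490 ± 586 RPM in the aneurysms and 192 ± 21.5 in the controls (SD, n = 5 each). The highest aneurysm was 166 times the lowest for this row, and the highest control was 1.27 times the lowest. Without aneurysm 8 the mean of this row in the aneurysms was 245 ± 240 RPM (SD, n = 4), and the highest was 63.5 times the lowest.

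The spread of the 4 rows differed from that of other rows of like level. Their CV was 118% to 120% over the aneurysms (98.2% to 103% without aneurysm 8) and 10.0% to 12.5% over the controls. The 185 to 201 rows within 2-fold of their mean level had a median CV of 75.0% to 75.2% in the aneurysms and 44.1% to 44.7% in the controls. In the aneurysms 91.5% to 93% of those rows had a lower CV than the 4 rows, and in the controls 0.498% to 0.541%. The difference in share between the groups had an exact permutation p of 0.349 to 0.357 for the 4 rows, larger in the mean of the aneurysms but with samples on both sides of the controls. For AABR07015055.1 this difference was 0.0297 percentage points with all samples and 0.0052 without aneurysm 8, and without it the exact permutation p was 0.714 to 0.746 for the 4 rows.

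**Figure D4:**
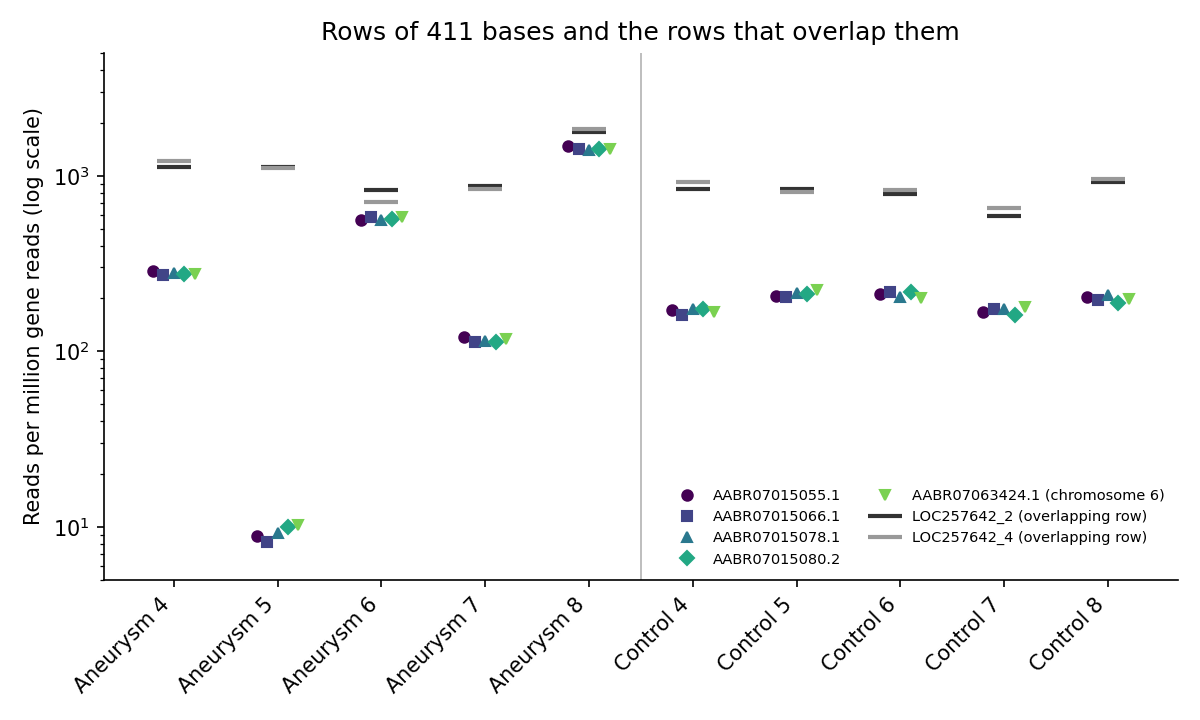
RPM (log scale) of the 4 rows on chromosome 14, of AABR07063424.1 on chromosome 6 and of the overlapping rows LOC257642_2 and LOC257642_4, in each sample. The rows of 411 bases lie on top of each other in every sample and range from 8.84 to 1470 RPM for AABR07015055.1 in the aneurysms, while the overlapping rows stay within a narrower range.

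The overlapping rows differed from the 4 rows in the order of the libraries. LOC257642_2, which overlaps AABR07015055.1, had 7926, 8219, 3853, 4147 and 8042 reads in aneurysm 4 to 8 and 3592, 3576, 2609, 3361 and 2784 in control 4 to 8. It was well covered in aneurysm 5, where AABR07015055.1 had only 65 reads. The Pearson correlation of AABR07015055.1 with LOC257642_2 over the 10 samples was 0.70 on log2 TMM-scaled CPM and 0.23 on log2 RPM, and without aneurysm 8 it was 0.13 and -0.38. LOC257642_4, which overlaps AABR07015080.2, had 8566, 8158, 3273, 3966 and 8378 reads in the aneurysms and 3944, 3412, 2733, 3746 and 2886 in the controls. LOC257642_3, which overlaps AABR07015066.1, had 138 reads in aneurysm 5, 1 in aneurysm 8 and 2 in control 5, and was at 0 in the other samples. For AABR07015080.2 and LOC257642_4 the correlations were 0.69 and 0.22 with all samples and 0.07 and -0.43 without aneurysm 8. AABR07015078.2 was at 0 in every sample, although it lies within AABR07015078.1. Of the reads of LOC257642_2 and LOC257642_4, 2.55% and 6.32% were unique.

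In the fit across all genes, 0 of the 5 rows were called different between aneurysm and control. The fit, edgeR's quasi-likelihood test on total gene reads with TMM scaling and Benjamini-Hochberg adjustment, called 12 of 7615 genes (0.158%) at an adjusted p under 0.05, 9 higher (0.118%) and 3 lower (0.0394%) in the aneurysms, and 436 genes (5.73%) had an unadjusted p under 0.05. AABR07000398.1 was at a log2 fold change of 1.24, with a standard error of 0.86 and an edgeR adjusted p = 0.999. AABR07015055.1 was at a log2 fold change of 2.66, with a standard error of 0.98 and an edgeR adjusted p = 0.553, and the other 3 rows of this length had 2.64, 2.58 and 2.65 (adjusted p = 0.553 to 0.563). All 4 were among the genes with an unadjusted p under 0.05, none was called, and with no unique read they are not independent measurements. The median log2 fold change of all tested genes was 0.13, with quartiles at -0.72 and 0.98.

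These fold changes rested on aneurysm 8. Without it the log2 fold change of AABR07000398.1 was 0.10 (standard error 0.37) and that of the 4 rows 0.09 to 0.15, with an edgeR adjusted p of 0.996 for each of the 5. The small TMM factor of aneurysm 8 enlarged its scaled values, and for AABR07000398.1 the scaled CPM in the aneurysms was 416815 ± 517664 (SD, n = 5), against 176112 ± 36134 in the controls. With library size alone in place of TMM the log2 fold change was 0.50 for AABR07000398.1 and 1.27 to 1.33 for the 4 rows. The shares and the RPM given above use no such factor.

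**Figure D5:**
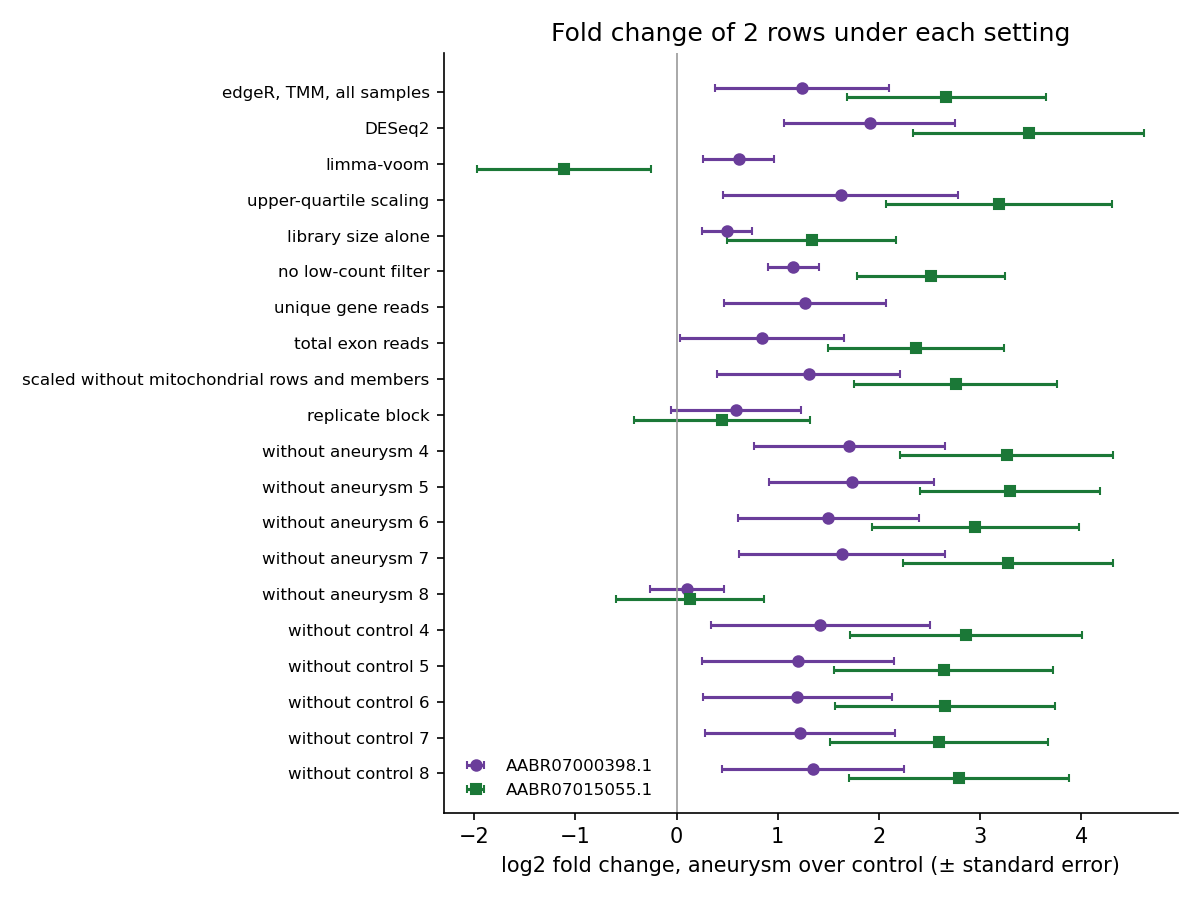
Log2 fold change, aneurysm over control, of AABR07000398.1 and AABR07015055.1 in the reported fit and in each alternative. Bars are the standard error, which for edgeR was derived from the fold change and the F statistic of its test. Without aneurysm 8 both are near 0 (0.10 and 0.13), and limma-voom places AABR07015055.1 below 0 (-1.11).

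The genes most like each row in level over the 10 samples were named by the Pearson correlation of log2 TMM-scaled CPM. For AABR07000398.1 these were LOC257642_2 (0.96) and Grb14, an adaptor of receptor tyrosine kinases (0.95). Both values came down without aneurysm 8, to 0.55 and 0.52, and without TMM scaling, to 0.72 and 0.77. With both changes made they were 0.26 and 0.13. For each of the 4 rows on chromosome 14 the most alike were others of the 5 rows of this length. Outside these, Glyr1, a chromatin reader, had 0.97 to 0.98 and Mark2, a kinase of microtubule-associated proteins, had 0.96 to 0.97. For AABR07015055.1 these were 0.95 and 0.93 without aneurysm 8. Both genes were picked for the highest correlation among the 7615 tested genes over these same libraries. A high value in 9 of them therefore follows in large part from that choice. How many genes reach such values was not counted. Without TMM scaling they were 0.92 and 0.85. Aneurysm 5, where AABR07015055.1 had only 65 reads, was not left out. Glyr1 had 966, 222, 1763, 360 and 1258 reads in aneurysm 4 to 8 and 780, 518, 473, 727 and 444 in control 4 to 8. Mark2 had 768, 277, 598, 302 and 478 reads in the aneurysms and 461, 388, 354, 585 and 339 in the controls. Both were lowest in aneurysm 5 and next lowest in aneurysm 7 among the aneurysms, the libraries in which the 4 rows were lowest. A choice by correlation favours such an order.

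Other AABR07 rows were few at this level. Of the 1183, 818 had 0 reads in all samples, 126 had a mean of at least 10 reads and 9 a mean of at least 1000. The member with the lowest mean, AABR07015078.1, had 1543 reads on average, and the next row below it, AABR07043748.1, had 1445. AABR07046778.1 on chromosome 5 (chr5:6373583-6373849), with a mean of 4520 reads, and AABR07063424.1, with 1559, lie above that lowest member without being among the 5. Like the rows on chromosome 14, both had almost no unique reads (a mean of 0.9 and 0 per sample).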

How the data were processed

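The authors sequenced poly(A)-selected RNA (stranded TruSeq library, paired reads of 75 bases) of 5 aneurysms and 5 samples of the remaining circle of Willis and mapped the reads to Rnor6 in CLC genomics workbench (version 11). The authors deposited counts without normalization: for each gene the reads in total and the unique ones, split into exon, intron and junction reads. The annotation release, the strand setting and the rule for reads that map to several places are not given in any source used here. Columns of the authors' own comparison hold fold changes and p-values and were deposited too and not used. Groups come from the sample labels.

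The fit across all genes used total gene reads in edgeR (4.0.16, under R 4.3.3): filterByExpr (count minimum 10), TMM, the quasi-likelihood test and Benjamini-Hochberg adjustment at 0.05. The standard errors given for edgeR were derived as the absolute log2 fold change divided by the square root of the F statistic of the test. Log2 CPM used a prior count of 2. Shares were compared by two-sided exact permutation tests. Alternatives used DESeq2 (1.42.0), limma (3.58.1), other scalings, filters, reads and denominators, the sample number as a block, and each sample left out. Spread was compared with rows within 2-fold of a row's mean level; densities were compared over rows with several exons, a mean of at least 10 reads and at least 100 exon reads in all. Deposited starts count from 0 (end minus start equalled the exon length in 3157 of 3157 rows with 1 exon), so 1 was added. The fit was tested on simulated counts with a dispersion set at 0.05. That value was not estimated from these samples, so the simulation does not show how the fit behaves at their spread. Other steps ran in Python 3.11.15 (numpy 2.4.6, pandas 2.3.3, matplotlib 3.10.9).

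The named genes are the 5 rows, rows that overlap or neighbour them, the 2 genes most like each in level, and the mitochondrial and other AABR07 rows. The members and lists were chosen with earlier results of these data known. All sample pairs within a group differed by more than sampling noise, with a chi-square of at least 55.8 per degree of freedom.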

Additional observations from a re-analysis of the deposited data

Results flagged for a closer look

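In 18 groups of 5 samples, the gap of the highest or lowest sample to its neighbour was set against the range of the group, and 2 exceeded the limit of 0.71 (Dixon's critical value). Chance gives about 1 in 20. Both concern AABR07000398.1 in control 4, whose share of gene reads was 20.1% against 17.1% to 17.8% in the other controls (gap over range 0.755), and whose reads per 100 mitochondrial reads were 53.0 against 30.2 to 36.6 (gap over range 0.718). The mitochondrial share of control 4 was 37.9%, the lowest of the controls (48.3% to 59.0% in the others).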

How the results depend on the processing

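The number of genes called was 12 in the reported fit, 130 with DESeq2, 130 without the low-count filter (16700 genes tested), 2 with upper-quartile scaling, 2 with library size alone and 1 (without control 8) to 33 (without aneurysm 8) with a sample left out. For AABR07000398.1 the log2 fold change of 1.24 became a call without the filter (1.15, standard error 0.25, edgeR adjusted p = 0.00166). Its edgeR and limma adjusted p ranged from 0.00166 to 1.0 over the alternatives, and DESeq2 gave none. For the 4 rows on chromosome 14 limma-voom turned the direction: the log2 fold changes were -1.11 for AABR07015055.1, -1.16 for AABR07015066.1, -1.14 for AABR07015078.1 and -1.08 for AABR07015080.2 (limma adjusted p = 0.682 to 0.704), and the cause was not tested. The difference in share of AABR07000398.1 was 7.34 points, 5.52 without mitochondrial reads in the denominator (exact permutation p = 0.730), -3.07 when aneurysm 8 was left out as well, and 4.29 to 9.03 with a sample left out. The difference in its exon share was -0.07 to 0.45 points with a sample left out, below 0 without aneurysm 4 (-0.012), aneurysm 5 (-0.068), aneurysm 6 (-0.050) and control 6 (-0.012). The difference in its unique share was -0.046 to -0.0064 with a sample left out.

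The sample numbers were not shown to pair the samples. For each gene, the mean of the group was subtracted from the log2 TMM-scaled CPM. The remaining deviations of samples of the same number correlated at -0.024 to 0.14 across genes. For number 6 (0.050) and number 8 (0.14) this was above the best value of that aneurysm with a control of another number (0.026 and 0.0022). For number 4, number 5 and number 7 it was below. With the number as a replicate block, 17 genes were called, the log2 fold change was 0.59 for AABR07000398.1 and 0.40 to 0.45 for the 4 rows (edgeR adjusted p = 0.998), and the share difference of 7.34 had an exact sign-flip p of 0.0625, the smallest it can give. The unique share of AABR07000398.1 had the same order of numbers in both groups and was lower in the aneurysm in 5 of 5 same-numbered pairs (difference of -0.024 points, exact sign-flip p of 0.0625 with the block). This comes from the data and not from the design. How often other measures have such an order was not counted, so that it does not show that the numbers pair the samples. A count of unique reads gives no value for the 4 rows. The correlations of most-alike genes without aneurysm 8 and without TMM scaling, and the share outside mitochondrial reads without aneurysm 8, were added after seeing the data.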
